A study of Mus musculus with 9 samples.

Results

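TNF is the founding inflammatory cytokine of its family, and NF-kappaB is the transcription factor system through which its receptors act. The report concerns 10 genes of this pathway, chosen by mouse symbol among the 47731 genes of the RNA count tables, together with the 8 of 9151 listed 5-hydroxymethylcytosine (5hmC) peaks that overlap their gene bodies. They comprise the ligand Tnf, the receptors Tnfrsf1a and Tnfrsf1b, the adaptor Traf2, the NF-kappaB subunits Rela, Relb, Nfkb1 and Nfkb2, and the inhibitors Nfkbia and Tnfaip3. All 10 were found in the tables and all 10 passed the filter on low counts.

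The samples were mouse macrophages at passage 0 treated with M-CSF, a cytokine on which macrophages depend for survival and growth. Groups were labelled Tet2 Knockout (2 RNA and 2 5hmC libraries) or Wild-Type (3 RNA and 2 5hmC libraries). TET2 oxidises 5-methylcytosine to 5hmC. The labels give no strain, age, tissue of origin, part of Tet2 removed or number of animals, and no time in culture. Nor do they say if replicates are separate animals or separate cultures. The p-values therefore reflect spread between libraries, and that spread may be technical.

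TNF binds TNFR1, encoded by Tnfrsf1a and found on most cells, or TNFR2, encoded by Tnfrsf1b and abundant on myeloid cells. TRAF2 joins the receptor complex and helps activate the IkappaB kinases. These mark IkappaB-alpha, the product of Nfkbia, for destruction, which frees RelA and p50 (from Nfkb1) to enter the nucleus, while RelB and p52 (from Nfkb2) form the slower non-canonical arm. In macrophages Nfkbia, Tnfaip3, Tnf, Relb, Nfkb1 and Nfkb2 are themselves textbook NF-kappaB targets, so the pathway feeds back on itself.

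RefSeq promoter windows were matched for 8 of the 10 genes (11 windows, GRCm38.p6), and the 250 bases before each annotated start were searched on both strands. The NF-kappaB consensus, a 10-letter motif, was found in windows of 3 genes, namely Tnfaip3, Nfkbia and Nfkb2. Of all 32851 windows 7.25% held it, which is a share of windows and not of genes. Tnfaip3 and Nfkb2 have several windows each, and so more places for a match. The narrower form GGGANTTTCC, whose matches are also matches to the consensus, was in 0.356% of all windows. Windows of these 3 genes and of Tnf are shown because the 3 hold the factor's motif while differing in RNA, and Tnf had the highest fold of the 10. Each is written 5′ to 3′ on the gene's strand, with matches to the consensus on either strand in capitals. The Nfkbia window is chr12:55492648-55492897, minus strand, the Nfkb2 window chr19:46304487-46304736, plus strand, and that of Tnfaip3 chr10:19015411-19015660, minus strand. The Tnf window is chr17:35202008-35202257, minus strand.
Nfkbia: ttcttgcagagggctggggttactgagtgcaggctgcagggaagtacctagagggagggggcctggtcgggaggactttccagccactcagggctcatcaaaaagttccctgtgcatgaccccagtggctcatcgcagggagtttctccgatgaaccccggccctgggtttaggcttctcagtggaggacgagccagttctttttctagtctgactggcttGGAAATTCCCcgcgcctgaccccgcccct
Nfkb2: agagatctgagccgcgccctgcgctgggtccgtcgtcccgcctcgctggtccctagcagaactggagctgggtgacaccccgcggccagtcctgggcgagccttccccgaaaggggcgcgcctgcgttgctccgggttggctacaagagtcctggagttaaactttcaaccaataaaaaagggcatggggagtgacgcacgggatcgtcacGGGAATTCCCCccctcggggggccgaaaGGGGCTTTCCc
Tnfaip3: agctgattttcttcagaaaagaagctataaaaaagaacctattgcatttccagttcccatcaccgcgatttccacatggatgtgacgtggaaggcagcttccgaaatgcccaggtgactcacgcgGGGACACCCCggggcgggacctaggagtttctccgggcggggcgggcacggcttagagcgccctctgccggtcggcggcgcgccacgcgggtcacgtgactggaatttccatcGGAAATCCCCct
Tnf: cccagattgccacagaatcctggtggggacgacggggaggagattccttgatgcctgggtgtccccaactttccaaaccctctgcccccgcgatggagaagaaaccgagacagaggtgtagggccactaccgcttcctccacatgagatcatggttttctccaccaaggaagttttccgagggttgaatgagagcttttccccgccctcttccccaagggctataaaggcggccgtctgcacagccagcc
In Nfkbia the match lies 29 to 20 bases before the start and reads GGGAATTTCC on the opposite strand, which is the narrower form. In this Nfkb2 window overlapping matches lie 39 to 29 bases before the start and another, GGGGCTTTCC, 11 to 2 bases before it. Further Nfkb2 windows, each 250 bases before a later start, hold GGGACATTCC on the opposite strand and GGGACTTTCC on the gene's strand. In Tnfaip3 a match lies 125 to 116 bases before the start and another, GGGGATTTCC on the opposite strand, 12 to 3 bases before it. The Tnf window has no match in these 250 bases, which says only that these letters are not in this window. A match is a description of sequence and not a bound site.

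RNA libraries held 16053426 to 56394358 counts in genes. Tet2 itself was at 228 and 122 normalised CPM (counts scaled to library size, per 1000000) in the libraries labelled knockout and at 104, 136 and 39.2 in those labelled wild type, so whole-gene levels overlapped between labels and each direction below rests on the labels. Among the table's other features, ENSMUSGKI000000001 was counted 1452 and 2245 times under the knockout label and 0 times in each wild-type-labelled library. The 12 listed macrophage markers summed to 19537 and 21561 normalised CPM in knockout-labelled libraries and to 13337 to 23835 in wild-type-labelled ones, mostly Lyz2 and Adgre1. Their fitted levels were split, with 6 higher and 6 lower. Adgre1, Itgam, Fcgr1, Cd14 and Marco were higher without overlap, and Cd68, Mertk and Tyrobp lower. Not all were well expressed throughout: Marco was at 1104 and 738 against 0.0684, 176 and 1.24, and Cd163 at 2.26 or less in every library. Wild-type-labelled replicate 3 stood apart, with stromal and osteoblast markers (14 genes) summing to 12529 normalised CPM against 434 to 1381 in the other libraries. Nearly all of the sum in those other libraries was Spp1 (442 and 1363 under the knockout label, 421 and 1249 under the wild-type label). Spp1 was at 6438 in wild-type-labelled replicate 3. Col1a1, Col1a2 and Fn1 were at 1144, 2237 and 907 there and at most 3.20 elsewhere, whereas Runx2, at 9.18, was not higher there. Neutrophil markers (9 genes) summed to 169 in knockout-labelled replicate 2 and 153 in wild-type-labelled replicate 1, and to 1.71 to 9.83 elsewhere. In bulk RNA, fewer cells of a type and less RNA per cell cannot be told apart.

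No member passed an adjusted p of 0.05 in edgeR's quasi-likelihood test over all genes, where 0.0135% of genes were called higher and 0% lower. Of the 10, 6 were higher in both knockout-labelled libraries than in all 3 wild-type-labelled ones (Tnf, Traf2, Relb, Nfkb1, Nfkb2 and Nfkbia) and 1 was lower (Rela), counts that were the same with each of 4 library scalings. Both receptors and Tnfaip3 overlapped. Among all 14851 tested genes, 17.2% were higher without overlap and 19% lower (36.2% in either direction). An unadjusted edgeR p under 0.05 was reached by 5 in the higher direction and 0 in the lower, against 5.95% and 7.86% of all genes. That count of 5 was 6, 4 and 5 without wild-type-labelled replicates 1, 2 and 3. The counts over all genes in these fits were 729, 993 and 1094, against 883 with all libraries. Leaving out a knockout-labelled replicate keeps 1 library under that label, so only medians are given. The median log2 difference of the 10 was then 0.47 without replicate 1 and 0.77 without replicate 2 (all genes -0.08 and -0.14). DESeq2 called 4 higher (Tnf, Nfkbia, Nfkb1 and Traf2) and 0 lower, against 3.2% higher and 4.55% lower over all genes, and limma-voom called 0 (0.00673% of all genes). The median log2 difference of the 10 was 0.65 and that of all tested genes -0.03.

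**Figure D1:**
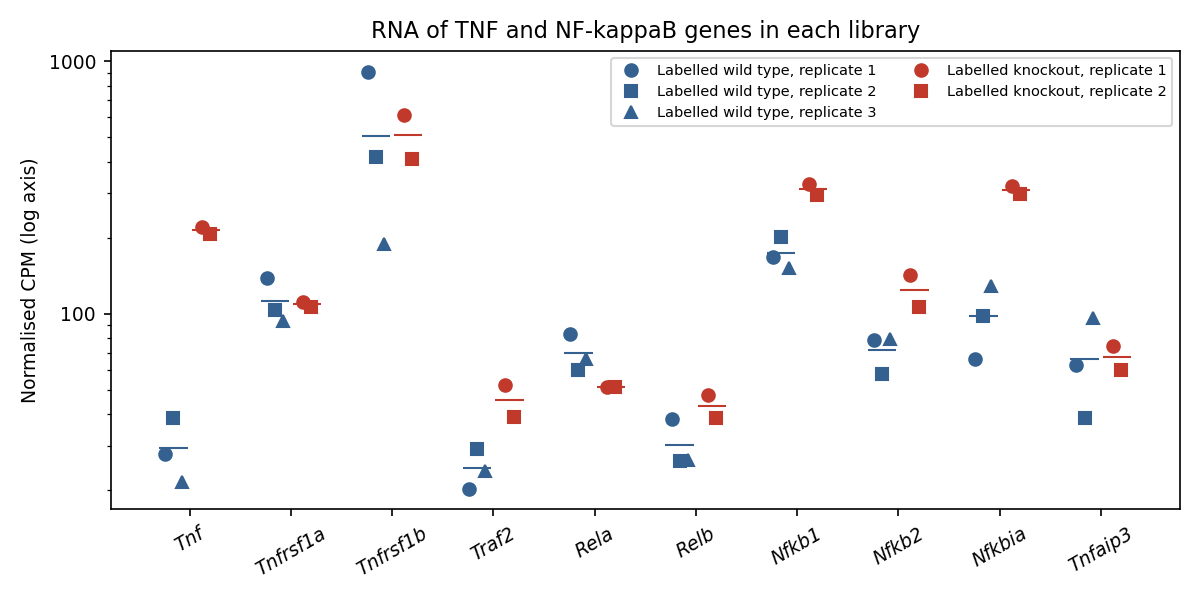
Normalised CPM (log axis) of the 10 genes in each of the 5 RNA libraries, with horizontal lines at the means of the 2 knockout-labelled and 3 wild-type-labelled libraries. Tnf, Nfkbia, Nfkb1, Nfkb2, Traf2 and Relb do not overlap between labels and lie higher in knockout. Levels of different genes are not corrected for length and are not comparable with each other.

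Tnf (ENSMUSG00000024401, GRCm38 chromosome 17, 35199367 to 35202007) encodes the cytokine itself. It was at 221 and 207 normalised CPM in the libraries labelled knockout and at 27.8, 38.8 and 21.6 in wild-type replicates 1, 2 and 3. All 5 values stood on at least 407 counts. Both knockout-labelled values lay far above the highest wild-type one, and their own spread was small (214 ± 9.38, SD, n = 2, against 29.4 ± 8.71, SD, n = 3). The fitted fold was 7.27 (log2 2.86 ± 0.29 SE, 95% interval of the fold 4.37 to 12.1). Its adjusted p was 0.137 in edgeR and 1.6e-14 in DESeq2, and it ranged from 0.0774 to 0.995 over the alternative edgeR and limma-voom fits, those without 1 library included. With any 1 library left out the log2 difference lay between 2.68 and 3.11, which includes the fit without wild-type-labelled replicate 3. By log2 difference, Tnf stood at the 98.5th percentile of all tested genes.

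Both receptors overlapped between labels. Tnfrsf1a (ENSMUSG00000030341, chromosome 6, 125349723 to 125362483), the receptor with a death domain, was at 111 and 107 normalised CPM in knockout-labelled and 139, 104 and 93.2 in wild-type-labelled libraries. The difference was -0.04 log2 (95% interval -0.64 to 0.56, edgeR adjusted p = 0.958), and the interval of the fold was 0.642 to 1.48. Tnfrsf1b (ENSMUSG00000028599, chromosome 4, 145212368 to 145246870) was at 611 and 411 in knockout-labelled libraries. In wild type it ranged from 188 in replicate 3 through 416 in replicate 2 to 909 in replicate 1, the widest spread of the 10 relative to its mean. Its 95% interval was wide, -1.64 to 1.68 log2 around 0.02, so even large differences were not detectable here (edgeR adjusted p = 0.991).

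Traf2 (ENSMUSG00000026942, chromosome 2, 25517982 to 25546940), the ubiquitin-ligase adaptor shared by both receptors, was at 52.0 and 39.0 normalised CPM in knockout-labelled libraries. The wild-type-labelled values were 20.3, 29.1 and 23.8, all below the lower knockout-labelled one. The fold was 1.86 (log2 0.90 ± 0.26 SE, edgeR adjusted p = 0.256, DESeq2 adjusted p = 0.0464). A pseudogene, Gm13433, overlaps the Traf2 body, and the strand setting of the counting is not given, so their reads may not be separable.

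The 4 NF-kappaB subunits did not move alike. Nfkb1 (ENSMUSG00000028163, chromosome 3, 135584655 to 135691969), which encodes p105 and its product p50, was at 328 and 295 normalised CPM against 168, 202 and 152. The groups do not overlap, with a fold of 1.79 (log2 0.84 ± 0.22 SE, edgeR adjusted p = 0.238, DESeq2 adjusted p = 0.00367). Nfkb2 (ENSMUSG00000025225, chromosome 19, 46300994 to 46312400), the p100 and p52 gene, was at 143 and 106 against 78.4, 57.6 and 79.3. Its fold was 1.73 (log2 0.79 ± 0.25 SE, edgeR adjusted p = 0.275, DESeq2 adjusted p = 0.0944), and its body overlaps Psd and the noncoding gene 4833438C02Rik. Nfkb1 likewise overlaps the noncoding Gm46827.

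Relb (ENSMUSG00000002983, chromosome 7, 19606217 to 19629438), the partner of p52, was at 47.6 and 38.7 normalised CPM against 38.2, 26.2 and 26.3. Knockout-labelled replicate 2 thus lay only just above wild-type-labelled replicate 1 (log2 0.52 ± 0.26 SE, edgeR adjusted p = 0.451). Rela (ENSMUSG00000024927, chromosome 19, 5637442 to 5648134), the main transactivating subunit of the canonical arm, went the other way. It was at 51.1 and 51.2 in knockout-labelled libraries and at 83.3, 59.6 and 66.1 in wild-type-labelled ones (log2 -0.44 ± 0.22 SE, edgeR adjusted p = 0.437). It was the only 1 of the 10 that was lower without overlap, and its direction was the same in every alternative fit.

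The 2 inhibitors differed from each other. Nfkbia (ENSMUSG00000021025, chromosome 12, 55489409 to 55492647) was at 321 and 299 normalised CPM in knockout-labelled libraries and at 66.0, 97.9 and 129 in wild-type replicates 1, 2 and 3. Its fold of 3.17 (95% interval 1.82 to 5.51, log2 1.66 ± 0.32 SE) was the second after that of Tnf, with an adjusted p of 0.188 in edgeR and 0.00145 in DESeq2. Without any 1 library the log2 difference was 1.41 to 1.92. Tnfaip3 (ENSMUSG00000019850, chromosome 10, 19000910 to 19015410) encodes A20, the ubiquitin-editing brake on TNF signalling. It was at 74.6 and 60.0 against 62.8, 38.5 and 96.6, so both knockout-labelled values fell inside the wild-type range (log2 0.03, 95% interval -0.99 to 1.04, edgeR adjusted p = 0.98). Its highest value was in wild-type-labelled replicate 3, the library with stromal RNA, and without that library the log2 difference was 0.41. The part of stromal RNA in this value was not tested.

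**Figure D2:**
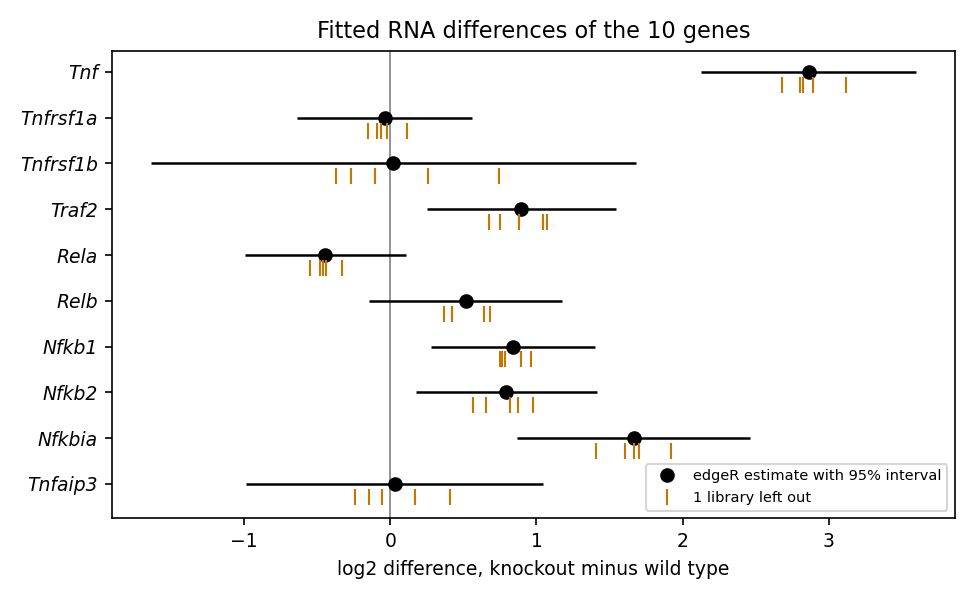
Fitted log2 difference, knockout-labelled minus wild-type-labelled, for each of the 10 genes with its 95% interval (black) and the fits that leave out 1 library (orange ticks). The intervals of Tnf, Nfkbia, Traf2, Nfkb1 and Nfkb2 lie above 0 before adjustment over all genes, and those of the other 5 cross it.

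Ratios of counts between 2 members within a library do not depend on how libraries are scaled, and 5 were compared (uncorrected for gene length, so only their differences between libraries are read). Nfkbia to Rela, inhibitor to its main client, was 6.28 and 5.84 in knockout-labelled libraries and 0.792, 1.64 and 1.96 in wild-type-labelled ones, 4.43-fold higher on average. Relb to Rela was 0.931 and 0.756 against 0.458, 0.440 and 0.397, which is 1.95-fold higher. Neither overlapped between labels, and both reached an exact two-sided permutation p of 0.1, the smallest that 10 arrangements allow (0.25 adjusted over the 5 ratios). Tnf to Tnfaip3, cytokine to brake, was 2.96 and 3.45 against 0.443, 1.01 and 0.224 (exact permutation p = 0.2, adjusted 0.333). Nfkb2 to Nfkb1 was 0.435 and 0.360 against 0.467, 0.285 and 0.522 (exact permutation p = 0.9), and Tnfrsf1b to Tnfrsf1a was 5.50 and 3.86 against 6.55, 4.01 and 2.02 (exact permutation p = 0.8). These last 2 ratios overlapped between labels.

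**Figure D3:**
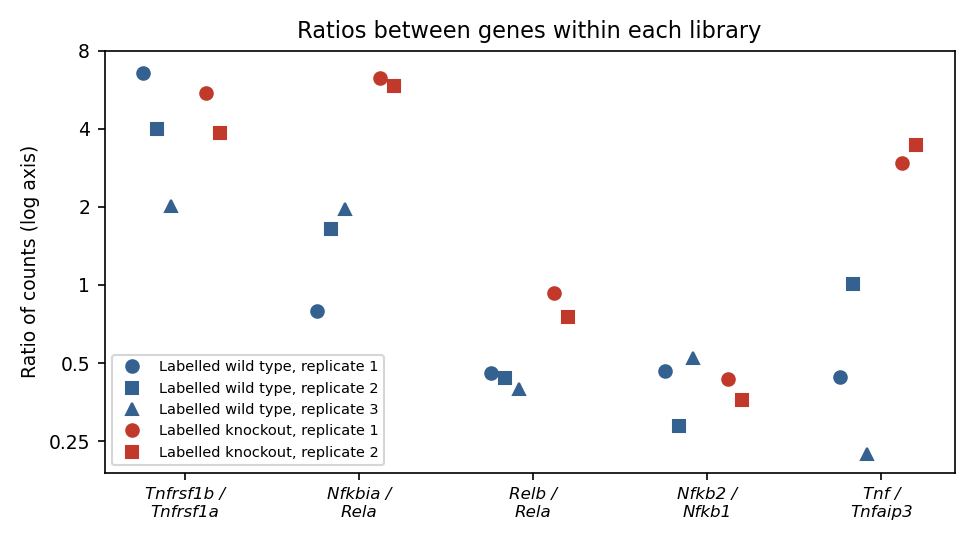
Ratio of counts of 2 genes within each RNA library (log axis), by label. Nfkbia to Rela, Relb to Rela and Tnf to Tnfaip3 are higher in both knockout-labelled libraries than in all 3 wild-type-labelled ones, and the other 2 ratios overlap.

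Beyond the 10, 98 other genes of the pathway were listed by role, and 93 were tested. The fitted level was higher for 61 and lower for 32, with a median log2 of 0.23 against -0.03 for all genes. None passed the adjusted threshold in edgeR or limma-voom. An unadjusted edgeR p under 0.05 was reached by 26 in the higher and 5 in the lower direction (5.95% and 7.86% of all genes). Without wild-type-labelled replicates 1, 2 and 3 in turn, these counts were 25 and 7, 25 and 10, and 30 and 5. Over all genes in these fits they were 729 and 1055 of 15468, 993 and 1106 of 14222, and 1094 and 1416 of 14218. Leaving out a knockout-labelled replicate keeps 1 library under that label, so only medians are given. The median log2 of these pathway genes was 0.13 without replicate 1 and 0.25 without replicate 2 (all genes -0.08 and -0.14). DESeq2 called 21 higher and 5 lower (3.2% and 4.55% of all genes). Without overlap, 38 were higher and 9 lower (17.2% and 19% of all genes). The 12 named next have the smallest unadjusted p among those without overlap and with a mean of at least 1 CPM.

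In the receptor complex, 11 of 18 genes had a higher level (median log2 0.06). Those with larger differences were Traf1, an inducible adaptor, at 44.8 and 41.4 normalised CPM against 11.1, 13.7 and 13.0, and Birc3, the ubiquitin ligase cIAP2, at 166 and 128 against 50.7, 65.9 and 35.3. Cflar, the inhibitor of caspase-8 also called FLIP, was at 373 and 249 against 150, 155 and 158. All 3 were higher in both knockout-labelled libraries, with edgeR adjusted p of 0.148, 0.197 and 0.221 and DESeq2 adjusted p of 4.2e-12, 0.00104 and 0.00768. Tradd, Ripk1 and Fadd, the core of the TNFR1 complex, had log2 differences of 0.05, -0.15 and -0.26.

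The kinases that activate NF-kappaB gave 6 of 7 higher (median log2 0.22), with Chuk, Ikbkb and Ikbkg, the IKK complex proper, at 0.14, -0.06 and 0.07. Among 7 genes of the Rel and IkappaB group, 6 were higher (median log2 0.58). Bcl3, an atypical IkappaB that binds p50 and p52, was at 65.6 and 52.7 normalised CPM against 15.9, 28.6 and 14.9 (edgeR adjusted p = 0.206). Nfkbiz, another nuclear IkappaB, was picked out after its values were seen: 720 and 614 against 18.3, 132 and 32.8 (log2 3.45 ± 0.86 SE, edgeR adjusted p = 0.230). The classical relatives of Nfkbia, Nfkbib and Nfkbie, had log2 differences of -0.03 and 0.08.

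Of 9 genes that set TNF mRNA decay and stability, 6 were higher (median log2 0.15). Zc3h12a, which encodes the RNase Regnase-1, was at 86.6 and 68.4 normalised CPM against 28.5, 31.0 and 33.9 (edgeR adjusted p = 0.162). Zfp36, encoding tristetraprolin, which destabilises Tnf mRNA, was at 119 and 91.4 against 140, 67.8 and 58.8 and overlapped. Zfp36l2, of the same family and picked out after its values were seen, was lower at 69.5 and 86.2 against 376, 223 and 147 (edgeR adjusted p = 0.238). Of 5 genes of TNF shedding, 2 were higher and 3 lower. Adam17, the protease that sheds TNF from the membrane, had a log2 difference of 0.03 ± 0.39 SE.

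Of 11 other negative regulators, 6 were higher and 5 lower, with a median log2 of 0.04. Tnip1, which encodes a partner of A20 and was picked out after its values were seen, was at 217 and 179 normalised CPM against 122, 97.0 and 60.0 (log2 1.09 ± 0.33 SE, edgeR adjusted p = 0.270). Cyld and Otulin, which encode deubiquitinases that trim the signalling chains, overlapped between labels, with log2 differences of 0.16 and 0.04.

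Of the 29 tested NF-kappaB target genes, 19 were higher and 10 lower, with a median log2 of 1.52. The adhesion molecule gene Icam1 was at 319 and 245 normalised CPM against 78.4, 104 and 85.3, and Sod2, mitochondrial superoxide dismutase, at 362 and 484 against 77.1, 133 and 89.6 (edgeR adjusted p = 0.162 for both). The chemokine gene Ccl3 was at 274 and 197 against 50.3, 42.6 and 79.8, and Bcl2a1d, an anti-apoptotic BCL2 relative whose near-identical copies may share its reads, at 48.4 and 18.0 against 5.81, 3.45 and 7.92. Cd83, an activation marker, went the other way, at 8.55 and 8.22 against 97.0, 22.0 and 89.4 (log2 -3.05 ± 0.71 SE, edgeR adjusted p = 0.211). Some targets were high in wild-type-labelled replicate 3: Ccl2 was at 396 there, 251 and 95.6 in knockout-labelled libraries, and 0.615 and 20.7 in the other wild-type-labelled ones. Without that replicate 21 of 29 targets were higher with a median log2 of 2.005, and without wild-type-labelled replicate 1 it was 16 with a median of 0.90.

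Of 5 other family ligands, 2 were tested and they went opposite ways. Ltb, the lymphotoxin-beta gene next to Tnf, was at 13.8 and 3.58 normalised CPM against 0.137, 0.221 and 0.368 (edgeR adjusted p = 0.162). Tnfsf13b, which encodes the B-cell survival factor BAFF and was picked out after its values were seen, was lower at 0.427 and 0.495 against 1.504, 2.33 and 2.26 (log2 -2.13 ± 0.52 SE, edgeR adjusted p = 0.225, DESeq2 adjusted p = 0.0076). Lta, on the other side of Tnf, had 2 and 8 counts against 0, 2 and 2 and was not tested. Of 5 tested receptors of the family, 4 were higher and 1 lower. Tnfrsf11a, encoding the osteoclast receptor RANK, was at 340 and 287 against 146, 177 and 111 (edgeR adjusted p = 0.219). B-lineage markers went both ways. Ms4a1 was at 3.24 and 0.647 normalised CPM against 0.0684, 0 and 0.0836, and Cd79b at 16.4 and 9.71 against 0.957, 2.72 and 0.217. Cd22 was lower, at 3.42 and 2.66 against 62.0, 10.7 and 10.5, as was Blnk, at 84.9 and 101 against 168, 135 and 106. Of 6 tested B-lineage markers out of 11 listed, 4 were higher and 2 lower, and the list's sum, 113 and 115 against 132 to 231, was mostly Blnk, which macrophages also express. Ltb, Ms4a1, Cd79b and Cd22 were each higher in knockout-labelled replicate 1 than in 2, and Blnk was lower in replicate 1. The part of B-lineage RNA in these results was not tested. Summed T and NK cell markers (10 genes, Cd3e at 0 in every library) were 1.83 and 5.52 against 6.12 to 38.02, mostly Cd4, and the other 9 genes were under 1 CPM in every library. Dendritic cell markers (8 genes) summed to 22.6 and 12.1 against 68.5 to 276, where the wild-type-labelled sums are mostly Itgax (2.81 and 3.69 against 271, 162 and 66.5). All 5 others tested on that list had log2 differences above 0, among them Batf3 (log2 2.16) and Ccr7 (log2 3.22). Summed mast cell and basophil markers (6 genes) were 4.58 and 1.37 against 1.45 to 6.001.

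**Figure D4:**
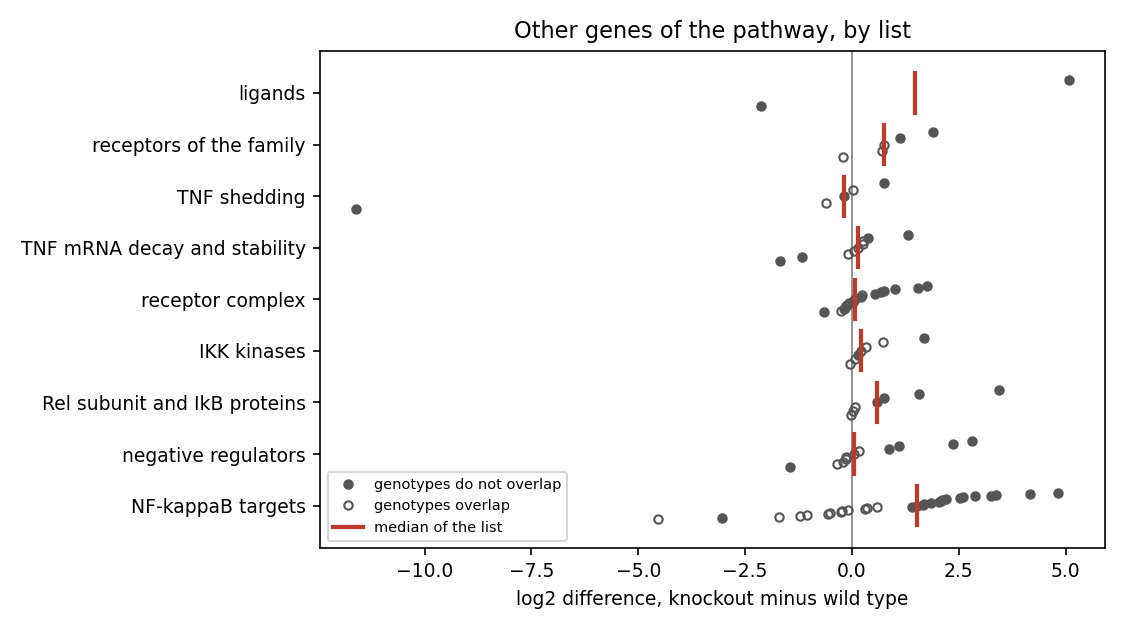
Fitted log2 difference, knockout-labelled minus wild-type-labelled, of each tested gene in the 9 lists of other pathway genes, with red bars at list medians and filled points where labels do not overlap. The NF-kappaB targets have a median of 1.52, and the receptor complex 0.06. The point at -11.6 is Timp3, at 669 normalised CPM in wild-type-labelled replicate 3 and at most 2.05 elsewhere.

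Genes like Tnf were sought among tested genes with a mean of at least 1 CPM, without predicted genes, clone names and pseudogenes. The 5 of these whose pattern over the 5 RNA libraries was nearest to that of Tnf were Kcnk12, H2-T10, Gfi1b, Adora2a and Nap1l2. Likeness was the mean absolute difference in centred log2 level, 0.152 to 0.214 for these genes. The nearest, Kcnk12, was at 12.3 and 8.83 normalised CPM against 1.09, 1.27 and 0.685. Gfi1b was at 0.698 or less and Nap1l2 at 0.368 or less in wild-type-labelled libraries. At such low levels the 0.5 added before the log shapes the likeness. With 5 libraries and 14851 tested genes before these exclusions, the ranking is a description only.

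The second assay counted reads of 5hmC-enriched DNA in listed peaks, with 42489 to 219116 counts in peaks per library. Of the 10 genes, 3 held at least 1 listed peak in the gene body, Nfkb1 with 5, Traf2 with 2 and Tnfrsf1a with 1. This is 30% of the members, against 16.6% of 21900 protein-coding genes. Longer genes held peaks more often (39.3% with bodies of 50 kb or more, 16.0% with 10 to 50 kb, 3.11% under 10 kb). The Nfkb1 body spans 107 kb, and the bodies of Tnf and Nfkbia 2.64 and 3.24 kb. The bodies of the other members lie between 10 and 50 kb. Among the 98 other pathway genes, 27 held a peak (27.6%).

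**Figure D5:**
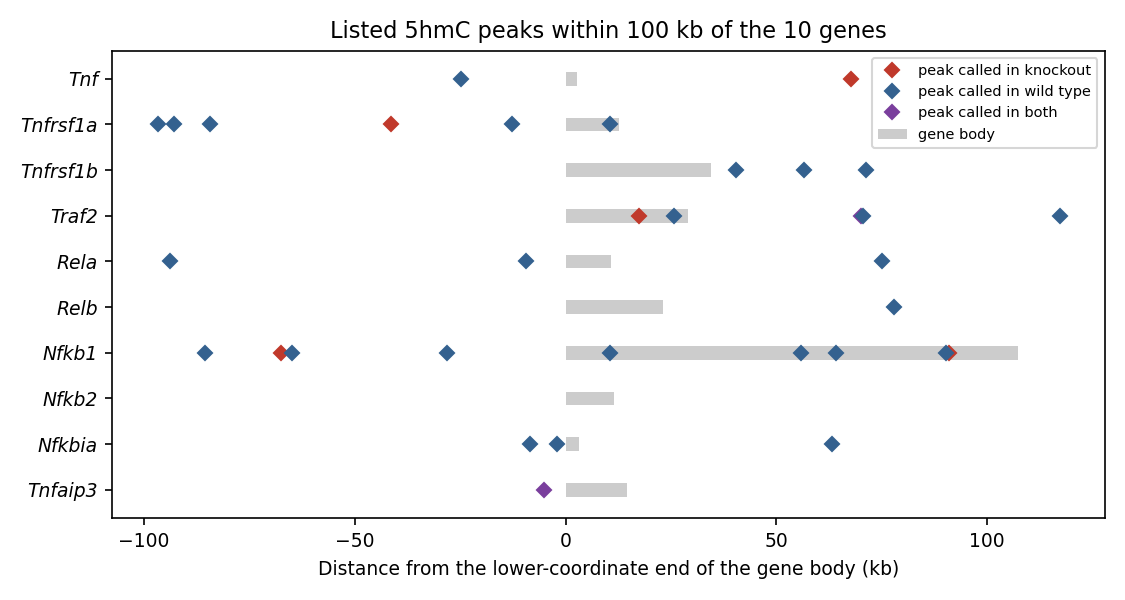
Listed 5hmC peaks (diamonds, coloured by the label in which the peak name says it was called) within 100 kb of each gene body (grey bars), in kb from the lower-coordinate end of the body. Nfkb1 holds 5 peaks, Traf2 2 and Tnfrsf1a 1, and none lies within 100 kb of Nfkb2.

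Counts of the knockout-labelled 5hmC pair were closer than sampling noise allows, and the pair was counted as 1 sample. None of the 8 peaks in member genes had enough counts for the test, in which 17.9% of 859 tested peaks were called higher and 1.75% lower, so their values are given without one. With at least 5 counts over all libraries required instead, all 8 were tested and none passed, the lowest edgeR adjusted p being 0.0667 for the knockout-called peak in Traf2. Of the 8, 6 were called in wild type and 2 in knockout. A peak called in 1 genotype favours that direction by its choice. The counts are small, and intervals below (95%, Clopper-Pearson) cover counting error only. Scaled values below are shares of each library's counts in listed peaks, whereas the main edgeR fit scaled libraries by TMM. Shares and fitted differences can therefore disagree, and with total counts only 0 peaks were called. Neither scaling can show a change in 5hmC common to all listed peaks.

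In Nfkb1 the peak at chromosome 3, 135640259 to 135640606, called in wild type, had 1 and 1 counts in the knockout-labelled libraries and 8 and 27 in the wild-type-labelled ones. Per 100000 peak counts this is 2.16 (0.0548 to 12.1) and 2.35 (0.0596 to 13.1) against 18.7 (8.09 to 36.9) and 12.3 (8.12 to 17.9). Both knockout-labelled values were below both wild-type-labelled ones, with intervals that overlap. The Nfkb1 peak at 135675471 to 135675755, called in knockout, had 3 and 10 counts against 1 and 11, or 6.49 and 23.5 per 100000 against 2.34 and 5.02. A wild-type-called peak beginning under 1 kb away, at 135674805 to 135675114, had 10.8 and 11.8 per 100000 against 14.1 and 9.13, so the labels overlapped there. The other 2 Nfkb1 peaks were both called in wild type. That at 135595015 to 135595350 had 6 and 6 counts against 1 and 27, or 13.0 and 14.1 per 100000 against 2.34 and 12.3. Both knockout-labelled values were above both wild-type-labelled ones there, with intervals that overlap. The peak at 135648460 to 135648984 had 8.65 and 7.06 per 100000 against 7.03 and 8.67, so the labels overlapped.

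In Traf2 the knockout-called peak at chromosome 2, 25535331 to 25535599, had 7 and 4 counts against 1 and 6, or 15.1 and 9.41 per 100000 against 2.34 and 2.74. The wild-type-called Traf2 peak at 25543552 to 25543842 had 7 and 6 counts against 3 and 21, or 15.1 and 14.1 against 7.03 and 9.58, and thus was higher per 100000 in both knockout-labelled libraries despite being called in wild type. The Tnfrsf1a peak at chromosome 6, 125360226 to 125360509, had 3 and 3 counts against 8 and 21, or 6.49 and 7.06 per 100000 against 18.7 and 9.58. In the fit requiring at least 5 counts over all libraries its log2 difference was smaller than its SE (-0.26 ± 0.84 SE). For scale, the median wild-type-called peak had 4.33 and 4.71 per 100000 in the knockout-labelled libraries and 9.37 and 10.04 in the wild-type-labelled ones. The median knockout-called peak had 13.0 and 14.1 against 4.69 and 4.11.

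The other 7 genes had their nearest listed peak outside the gene body. That of Nfkbia, at chromosome 12, 55486999 to 55487650, lay 1.76 kb away and was among the deeper ones, with 18 and 14 counts against 11 and 57. It was tested and did not pass (38.9 and 32.9 per 100000 against 25.8 and 26.0, log2 0.54 ± 0.45 SE, edgeR adjusted p = 0.403). The Tnfaip3 peak, called in both genotypes, lay 4.96 kb away at chromosome 10, 18995469 to 18995950, with 9 and 6 counts against 15 and 64 (log2 -0.68 ± 0.54 SE, edgeR adjusted p = 0.383). The nearest peak to Tnfrsf1b was 5.61 kb away, with 2 and 1 counts against 5 and 29, and that to Rela 9.22 kb away. For Tnf, Relb and Nfkb2 the distances were 24.6, 54.5 and 142 kb. The peak nearest to Tnf had 10.8 and 21.2 per 100000 against 18.7 and 12.3, so the labels overlapped.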

How the data were processed

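The authors deposited raw read counts, 1 table a library, by gene for ribodepleted RNA and by listed peak for 5hmC. Tools named in the submitters' processing notes, with no roles, are HTSeq, MACS2, BWA, STAR, Trim Galore and CASAVA 1.4, and the build is GRCm38. Annotation release and strand setting are not stated there. Of 47731 gene IDs, 47224 matched a symbol. Gene bodies and promoter windows came from RefSeq tables of GRCm38.p6.

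RNA was fitted across all genes with edgeR 4.0.16 in R 4.3.3 (quasi-likelihood test, TMM scaling, filterByExpr, two-sided, Benjamini-Hochberg over 14851 genes, threshold 0.05). SEs and 95% intervals come from the same fit. DESeq2 1.42.0, limma-voom (limma 3.58.1), other scalings, other filters, a replicate block (without wild-type-labelled replicate 3) and leaving out each library were alternatives. Few libraries and their spread limit the test: large differences can miss the threshold.

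For 5hmC the 2 knockout-labelled libraries (their chi-square over 2544 peaks was 0.575 times its degrees of freedom) entered as their rounded mean. The main 5hmC fit used edgeR with TMM scaling, whereas the shares shown used total counts in listed peaks. A peak belonged to a gene whose body it overlapped by at least 1 base. The fits were tested on simulated data.

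The members, lists and rules were chosen with earlier results of these data known. Named pathway genes were those past the threshold or, with fewer than 12, the smallest unadjusted p without overlap and with a mean of at least 1 CPM. Genes like Tnf were ranked on log2 of normalised CPM plus 0.5. Sequences of 5hmC peaks were not used here.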

Additional observations from a re-analysis of the deposited data

How the results depend on the processing

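The count of genes called in RNA was 2 with edgeR and 1235 (510 higher, 725 lower) with DESeq2, 1 with limma-voom, 4 (3 higher) at an adjusted p of 0.1, and 0 with total counts only, with a mean of at least 1 CPM, with the replicate block and without any 1 replicate (0 to 0). Of members, 0 were called in edgeR and 4 in DESeq2, and of pathway genes 0 and 26. No other alternative called a member or pathway gene, and the cause was not tested. Leaving out replicates gave 0 to 0 for both. Of 130 alternative values of the members' log2 differences, 10 changed sign, all in Tnfrsf1a, Tnfrsf1b or Tnfaip3, whose differences are near 0, and 7 members never did. Tnfrsf1a was at 0.042 with total counts only and -0.16 to 0.11 without 1 replicate. Tnfrsf1b was at -0.29 with the replicate block, which leaves out wild-type-labelled replicate 3, and at -0.37 without that replicate and with no block. Without 1 replicate it ranged from -0.37 to 0.74. Tnfaip3 was at -0.011 with no filter and -0.24 to 0.41 without 1 replicate. The ratio of Nfkb2 to Nfkb1 had a log2 difference of -0.32 to 0.12, and that of Tnfrsf1b to Tnfrsf1a of -0.15 to 0.69, without 1 replicate.

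The labels do not say that same-numbered libraries are pairs. Deviations of same-numbered RNA libraries correlated at 0.0705 and -0.0936. Deviations of the 2 knockout-labelled libraries from their mean mirror each other, so swapping the numbers gave -0.0705 and 0.0936. These correlations therefore cannot show if the numbers pair libraries. The fit with the replicate block leaves out wild-type-labelled replicate 3, which has no knockout-labelled library of the same number. With the block 3 members had an unadjusted edgeR p under 0.05. Without wild-type-labelled replicate 3 and with no block it was 5, as with all libraries. No member was called by any of these fits. Over all genes 895 higher and 1104 lower of 14218 had such a p with the block. Without wild-type-labelled replicate 3 and with no block they were 1094 and 1416 of 14218. With all libraries and no block they were 883 and 1167 of 14851.

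The count of 5hmC peaks called was 169 (154 higher), and 71 (all higher) with DESeq2, 0 with total counts only, 435 (409 higher) with at least 5 counts over all libraries, 303 (152 higher) with knockout libraries as 2 samples, 258 (129 higher) with those and the replicate block, and 185 to 234 without 1 knockout replicate. Leaving out a wild-type 5hmC replicate was not run, because 1 sample a group leaves no residual degrees of freedom. Members with a peak were 3, and 4 with 2 kb added to the body, which brings in Nfkbia. Most peaks near the members had too few counts to test.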
